A study of Mus musculus with 14 samples.

Results

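The variable (V) segments of the immunoglobulin kappa light chain are the gene entries whose symbol begins with Igkv, and 158 of the 46959 gene entries of the deposited count table carry such a symbol. Each segment was followed as a share of all Igkv counts of its library, first to see which segments a lymphoma line transcribes, then to see which lines have 2 leading segments, and last to see which other segments are present in tumours grown in mice. The study sequenced RNA from 14 libraries of Eµ-Myc lymphoma, in which a Myc transgene driven by the immunoglobulin heavy chain enhancer gives malignant B-lineage cells. The ASNase lymphoma and the vehicle lymphoma were lymph node tumours of wild-type C57BL/6 mice that had been injected with cells of line 506. Treatment began on day 7 and lasted to the disease endpoint, with the asparagine-degrading enzyme L-asparaginase (ASNase) in the ASNase lymphoma and with 0.9% NaCl in the vehicle lymphoma. The 12 cultured lines came from a different E-mu-MycTg/+ mouse each and were grown untreated for 24 h in a medium with added L-asparagine. The labels give the genotype of every sample as WT, beside the transgene named for the mice of origin. Each line and each treatment had 1 library, and a lymphoma library holds the RNA of host cells of the lymph node as well as that of the injected cells.

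Kappa light chains are assembled in precursor B cells, where the RAG1 and RAG2 proteins cut beside a V and a J (joining) segment and repair enzymes join them. A V segment that lies in the same orientation as the J segments is joined by deleting the DNA between them, and a V segment in the opposite orientation is joined by inverting it. The joined V promoter comes under the enhancers beside the constant segment Igkc and is strongly transcribed. A rearranged allele can be replaced by a further joining of an upstream V to a downstream J segment, and segments that have not been rearranged give low levels of germline transcripts. A count in this table places a read on a V segment and does not say whether that segment had been rearranged.

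All 158 segments lay on chromosome 6 (mm10, which is GRCm38) between positions 67555497 and 70704177, 76 on the plus strand, as the J segments, and 82 on the minus strand. They fell into 20 families, the first number of the symbol. GENCODE M21 lists 156 of them, 98 as V genes and 58 as pseudogenes. The V genes held 374736 of the 376392 Igkv counts of the 14 libraries and the pseudogenes 994, which is 0.264%. No count was found for 29 segments, 28 of them pseudogenes. At least 3 counts in some library were found for 115 segments. Total counts per library were 25690935 in the ASNase lymphoma, 27715832 in the vehicle lymphoma and 24597230 to 32614751 in the lines, so that 3 counts, the limit that a count of 0 allows, stand for 0.0896 to 0.124 CPM. CPM are counts for each 1e6 counts of the library after TMM scaling. Reads carry no molecular identifiers, so limits and intervals cover counting error only.

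Of the 11 lines with over 100 Igkv counts, 4 shared Igkv9-120 as first segment and each of the other 7 had its own. The 3′ ends of these first V regions are shown because this stretch meets the J segment and tells them apart. The last 60 coding bases are from GENCODE M21 transcripts on GRCm38, read 5′ to 3′ in the sense of the gene, and the capitals mark the germline part of the third complementarity-determining region, after the last in-frame cysteine codon.
Igkv9-120: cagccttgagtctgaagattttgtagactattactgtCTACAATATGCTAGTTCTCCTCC
Igkv12-44: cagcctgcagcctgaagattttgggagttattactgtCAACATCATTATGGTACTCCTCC
Igkv3-12: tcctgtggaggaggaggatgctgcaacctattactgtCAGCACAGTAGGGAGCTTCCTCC
Igkv4-72: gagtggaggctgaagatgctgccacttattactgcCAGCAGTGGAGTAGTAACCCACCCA
Igkv3-7: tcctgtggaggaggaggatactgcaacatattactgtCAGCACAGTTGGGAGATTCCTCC
Igkv4-68: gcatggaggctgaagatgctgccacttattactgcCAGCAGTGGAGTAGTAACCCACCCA
Igkv1-135: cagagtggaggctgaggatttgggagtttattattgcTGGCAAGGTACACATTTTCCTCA
Igkv14-111: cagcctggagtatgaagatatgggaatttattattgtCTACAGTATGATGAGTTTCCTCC
Igkv4-72 and Igkv4-68 end in the same 25 bases after that cysteine, and stood first in different lines, 309 and 517. The other 6 have 23 bases there.

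Igkv9-120 (chr6:68049983-68050456, plus strand, 2673 kb upstream of Igkj1) took 15158 of 16551 Igkv counts in the ASNase lymphoma, 21227 of 23694 in the vehicle lymphoma and 39446 of 42285 in line 506, from which both tumours derive. These are shares of 91.6% (exact Clopper-Pearson 95% interval 91.2 to 92.0), 89.6% (89.2 to 89.97) and 93.3% (93.0 to 93.5). The same segment led the Igkv counts of lines 688, 649 and 549, with 34346, 27547 and 15911 counts. In the other 8 lines it had 1 to 221 counts, with a median of 4.5 and the highest value in line 801. The lymphomas therefore share their first segment with line 506 and also with 3 lines of other mice, so that the first segment alone does not single out the line of origin.

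The remaining first segments were each the first of 1 line, apart from the weak signal of line 504 below. Igkv12-44 (chr6:69814631-69815154, minus strand) held 80.6% of the Igkv counts of line 115. Igkv3-12 (chr6:70518250-70518849, plus strand) held 55.6% in line 136. Igkv4-72 (chr6:69226854-69227433, minus strand) held 61.1% in line 309, and Igkv4-68 (chr6:69304834-69305405, minus strand) held 78.5% in line 517. Both belong to the Igkv4 family. Igkv3-7 (chr6:70607437-70608036, plus strand) held 96.3% in line 505, and Igkv1-135 (chr6:67609713-67610508, plus strand) held 89.8% in line 524. Igkv14-111 (chr6:68256389-68256869, plus strand) held 28.7% in line 801. These segments lie from 115 kb to 3113 kb upstream of Igkj1, so the first segments come from both ends and the middle of the locus.

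**Figure D1:**
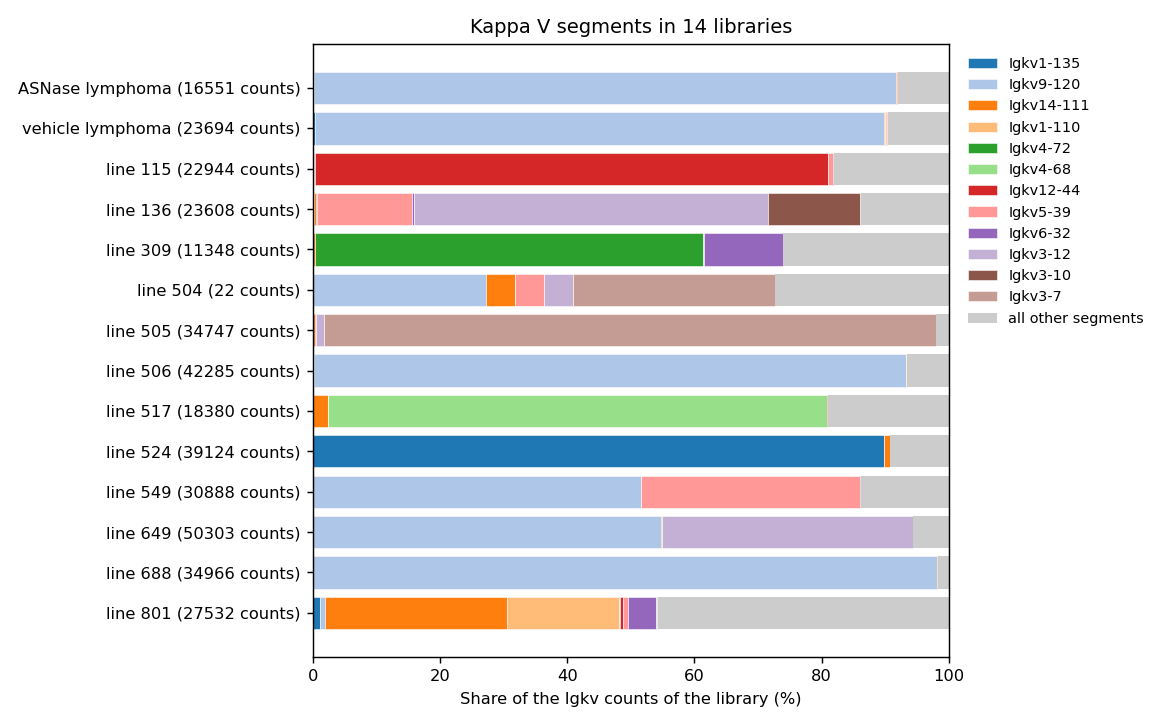
Share of the Igkv counts of each library, in percent, taken by the 12 segments that reach 10% in some line, with all other segments in grey. Igkv9-120 fills 91.6% of the ASNase lymphoma, 89.6% of the vehicle lymphoma and 93.3% of line 506, lines 549 and 649 show 2 large blocks, and line 801 is mostly divided among small ones.

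The evenness of each library was described by the effective number of segments, the inverse of the summed squared shares, which is 1 where a single segment takes all counts. It was 1.19 in the ASNase lymphoma, 1.24 in the vehicle lymphoma and 1.15 in line 506. Lines 688 and 505 were close to a single segment, at 1.04 and 1.08, and the 11 lines with over 100 Igkv counts had a median of 1.596. Line 801 stood apart at 7.55. Its 5 most abundant segments were Igkv14-111, Igkv1-110, Igkv6-17, Igkv1-117 and Igkv17-127, with 28.7%, 17.6%, 8.14%, 6.06% and 5.84% of the Igkv counts. It also had the most segments with at least 3 counts, 100, against 20 to 72 in the other 10 of these lines. The Igkv total of line 801, 27532 counts, lay inside the range of those lines, 11348 to 50303.

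A line was described as having 2 leading segments where its second segment held at least 10% of the Igkv counts. There were 6 such lines, 136, 309, 504, 549, 649 and 801, and 5 without line 504, which had 22 Igkv counts. Apart from line 504, lines 649 and 549 had the most even pairs, with 1.39 and 1.49 counts of the first segment for each count of the second. Line 649 had 27547 counts of Igkv9-120 and 19873 of Igkv3-12, shares of 54.8% and 39.5%, with 5.73% left to all others. Line 549 had 15911 counts of Igkv9-120 and 10661 of Igkv5-39 (chr6:69900424-69900977, minus strand), shares of 51.5% and 34.5%, and Igkv5-43 followed with 8.51%. In line 136 Igkv3-12 with 13123 counts was followed by Igkv5-39 with 3508 and Igkv3-10 with 3431, so 3 segments passed the threshold there. In line 309 Igkv4-72 with 6932 counts was followed by Igkv6-32 with 1409. In line 801 Igkv14-111 and Igkv1-110, with 7897 and 4850 counts, lie 14.1 kb apart on the same strand.

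The number of such lines depends on the threshold. At 20% it was 3, lines 504, 549 and 649, and 2 without line 504, and at 5% it was 9. The members just inside 10% were Igkv6-32 in line 309, with 12.4% (11.8 to 13.0), and Igkv3-10 in line 136, with 14.5%. Just outside were Igkv5-43 in line 115 with 8.75% (8.38 to 9.12), Igkv4-59 in line 517 with 8.18% (7.79 to 8.59) and Igkv6-23 in line 524 with 8.10% (7.83 to 8.37). Igkv6-23 had 3169 counts in line 524 and 0 to 100 in the other lines, and it is of another family than Igkv1-135, the first segment there. The lymphomas had 1 leading segment each, as had line 506, whose second segment, Igkv17-121, held 2.28%. A bulk count cannot tell whether 2 segments are transcribed in the same cells.

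**Figure D2:**
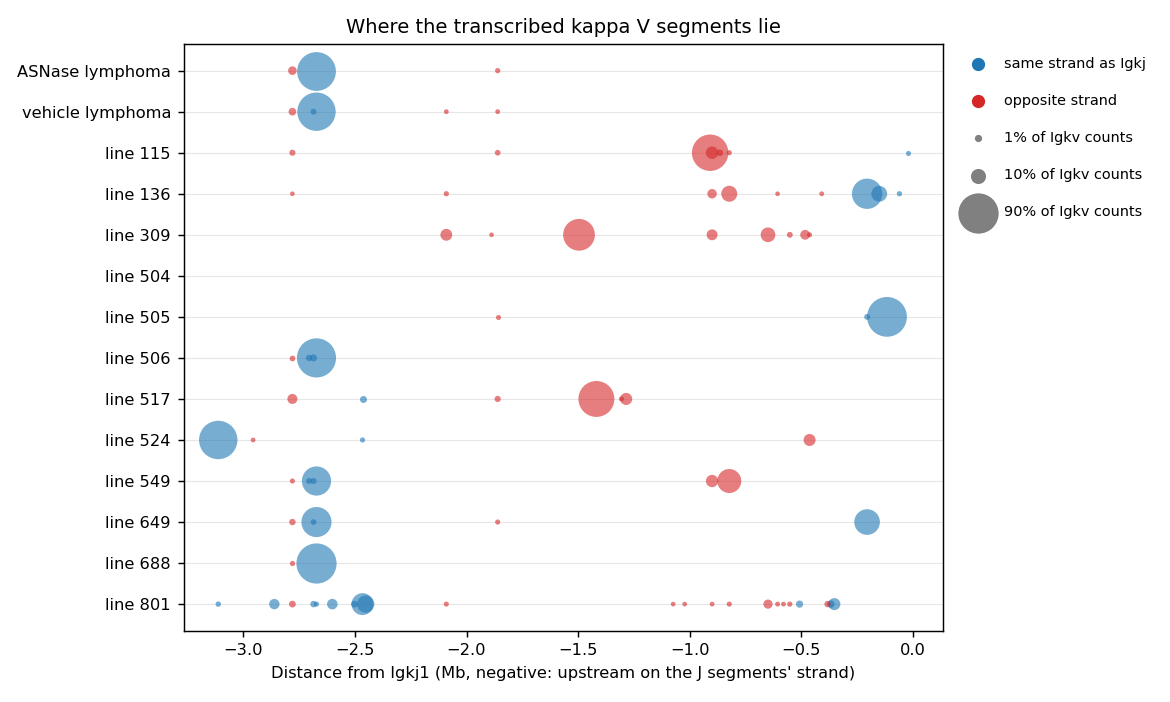
Position of every segment with at least 0.5% of the Igkv counts of its library, as distance from Igkj1 in Mb, with circle area growing with the share and colour giving the strand; line 504 is blank because it had 22 Igkv counts. The large circle of the lymphomas and of lines 506, 549, 649 and 688 is Igkv9-120, and lines 115, 309 and 517 show opposite-strand segments nearly alone.

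Strand divided the lines. Plus-strand segments, which lie as the J segments do, held 93.6% of the Igkv counts in the ASNase lymphoma, 93.3% in the vehicle lymphoma and 98.2% in line 506. They held 0.916% in line 309, 2.04% in line 115 and 4.14% in line 517, where the first segments are on the minus strand. Lines 549 and 136 were mixed, at 55.3% and 73.8%. In line 649, both leading segments are on the plus strand, at 2673 kb and 204 kb from Igkj1, and the plus-strand share was 96.8%.

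Several second segments are close copies of the first, and reads from one copy could be placed on another, since the treatment of reads with several matches is not given in the sources used here. Igkv9-124 (chr6:67942074-67942540, minus strand) is 95.2% identical to Igkv9-120 over the coding sequence, with 17 differing bases and a longest shared run of 102 bases, longer than a 75-base read. The last 300 coding bases of both are shown, again from GENCODE M21 and 5′ to 3′ in the sense of the gene, with the differing bases in capitals, 12 of the 17.
Igkv9-120: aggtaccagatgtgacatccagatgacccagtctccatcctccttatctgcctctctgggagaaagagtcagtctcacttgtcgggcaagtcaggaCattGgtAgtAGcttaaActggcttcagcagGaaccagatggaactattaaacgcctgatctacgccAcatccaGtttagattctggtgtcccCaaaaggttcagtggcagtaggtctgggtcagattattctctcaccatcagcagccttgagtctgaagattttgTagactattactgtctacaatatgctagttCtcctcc
Igkv9-124: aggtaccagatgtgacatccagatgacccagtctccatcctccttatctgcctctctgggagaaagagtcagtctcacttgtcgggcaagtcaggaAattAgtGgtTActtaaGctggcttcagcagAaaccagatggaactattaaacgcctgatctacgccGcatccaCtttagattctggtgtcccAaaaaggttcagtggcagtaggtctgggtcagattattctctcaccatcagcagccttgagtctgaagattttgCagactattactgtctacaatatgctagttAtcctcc
Igkv9-124 had 618 counts in the ASNase lymphoma, 660 in the vehicle lymphoma and 507 in line 506, which is 4.08%, 3.11% and 1.29% of the Igkv9-120 counts of the same library. In lines 549, 649 and 688 it was 1.53%, 3.16% and 0.900% of Igkv9-120. Yet it had 990 counts in line 517 and 345 in line 115, where Igkv9-120 had 10 and 6, more counts of the copy than of Igkv9-120 itself. It had no count in line 524, beside 2 of Igkv9-120.

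Igkv3-12 and Igkv3-7 are 96.7% identical, with 12 differing bases and a shared run of 108 bases. Their last 300 coding bases are shown in the same way, with 10 of the 12 differing bases in capitals, because each leads a line.
Igkv3-12: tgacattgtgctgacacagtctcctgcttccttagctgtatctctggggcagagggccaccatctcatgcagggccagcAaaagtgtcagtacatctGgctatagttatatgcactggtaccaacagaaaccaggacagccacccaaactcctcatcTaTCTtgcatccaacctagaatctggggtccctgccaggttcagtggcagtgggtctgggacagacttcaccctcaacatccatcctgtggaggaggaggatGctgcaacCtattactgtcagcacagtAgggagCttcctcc
Igkv3-7: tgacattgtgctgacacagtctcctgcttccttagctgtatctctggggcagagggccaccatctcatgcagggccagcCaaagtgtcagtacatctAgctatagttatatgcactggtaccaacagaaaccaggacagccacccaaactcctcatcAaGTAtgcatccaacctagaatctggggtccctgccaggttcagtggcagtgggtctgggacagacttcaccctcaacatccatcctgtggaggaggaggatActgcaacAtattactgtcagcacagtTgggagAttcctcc
In line 505, with 33478 counts of Igkv3-7, Igkv3-12 had 452, or 1.35% of it. In line 649, with 19873 counts of Igkv3-12, Igkv3-7 had 21, and in line 136, with 13123, it had 22. Line 505 thus had a larger share on the copy than lines 649 and 136 had in the other direction.

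Other pairs differed more between lines. Igkv5-39 and Igkv5-43 are 89.9% identical with a shared run of 49 bases, and Igkv5-43 stood at 24.7% of Igkv5-39 in line 549 and 31.6% in line 136. In line 309, however, Igkv5-43 had 737 counts beside 3 of Igkv5-39, and in line 115 it had 2007 beside 199. Igkv4-59 is 95.7% identical to Igkv4-68 and had 1504 counts in line 517, where Igkv4-68 leads, and 0 to 28 in the other lines. Igkv17-127, 97.5% identical to Igkv17-121, stood at 15.2% of it in the vehicle lymphoma and at 12.7%, 12.7% and 15.4% in lines 506, 549 and 649. It had 7 counts beside 77 of Igkv17-121 in the ASNase lymphoma and 6 beside 66 in line 688, and 117 beside 7 in line 136. Line 801 had 1609 counts of Igkv17-127 against 497 of Igkv17-121.

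A pair of unlike segments just upstream of Igkv9-120 were counted in the lines that it leads. Igkv17-121 starts 13.2 kb upstream on the same strand and is 59.1% identical to it, with no shared run over 14 bases. It had 77 counts in the ASNase lymphoma, 329 in the vehicle lymphoma and 965, 611, 472 and 66 in lines 506, 649, 549 and 688. In the lines that Igkv9-120 does not lead it had 497 counts in line 801 and 0 to 7 in the other 7. Igkv1-122, 33.3 kb upstream, had 9 counts in the ASNase lymphoma, 15 in the vehicle lymphoma and 720, 132, 410 and 12 in lines 506, 649, 549 and 688. Both were thus high in line 506 and lower in the tumours grown from it, whereas line 688, with the highest Igkv9-120 share, had few counts of either.

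In line 115 Igkv5-43, which lies 8.72 kb upstream of Igkv12-44 on the same strand and is 63.8% identical to it, had 2007 counts. Igkv5-43 was also counted where Igkv12-44 does not lead, with 2628, 1107 and 737 counts in lines 549, 136 and 309. Igkv12-44 had 5, 40 and 6 there. In line 801 Igkv2-112, 36.4 kb upstream of Igkv14-111, had 570 counts, against at most 4 in the other lines. The first segments of lines 136, 309, 505, 517 and 524 had no neighbour within 50 kb with over 18 counts. These were Igkv3-12, Igkv4-72, Igkv3-7, Igkv4-68 and Igkv1-135. The only neighbours of Igkv3-12 and Igkv1-135 within 50 kb were pseudogenes: Igkv3-11, Igkv3-12-1 and Igkv1-136.

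Summed Igkv transcripts stood at 553 CPM in the ASNase lymphoma, 763 CPM in the vehicle lymphoma and 1435 CPM in line 506, and averaged 962 ± 476 CPM in the lines (SD, n = 12). Igkc, the constant segment of the kappa chain, stood at 988 CPM in the ASNase lymphoma, 1646 CPM in the vehicle lymphoma, 2322 CPM in line 506 and 1428 ± 723 CPM in the lines (SD, n = 12). For each Igkc count there were 0.559 Igkv counts in the ASNase lymphoma, 0.463 in the vehicle lymphoma and 0.562 to 0.866 in the lines, where the highest value was that of line 524. The vehicle lymphoma lies below the range of the lines in this ratio, and the ASNase lymphoma just below it.

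Line 504 had almost no kappa transcripts, with 22 Igkv counts (0.759 CPM) and 35 Igkc counts (1.21 CPM). Of the 22 counts 7 fell on Igkv3-7 and 6 on Igkv9-120, which lead other lines, and 9 other segments had 1 count each. The shares of its first segments, 31.8% (13.9 to 54.9) and 27.3% (10.7 to 50.2), are therefore loosely bounded. Line 504 had the highest levels of the surrogate light chain, which precursor B cells pair with the heavy chain before a light chain is made. Igll1 stood at 425 CPM and Vpreb1 at 298 CPM in line 504, against at most 61.1 and 17.1 CPM in the other lines, both in line 801. The lambda constant segments Iglc1, Iglc2 and Iglc3 had no count in line 504.

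**Figure D3:**
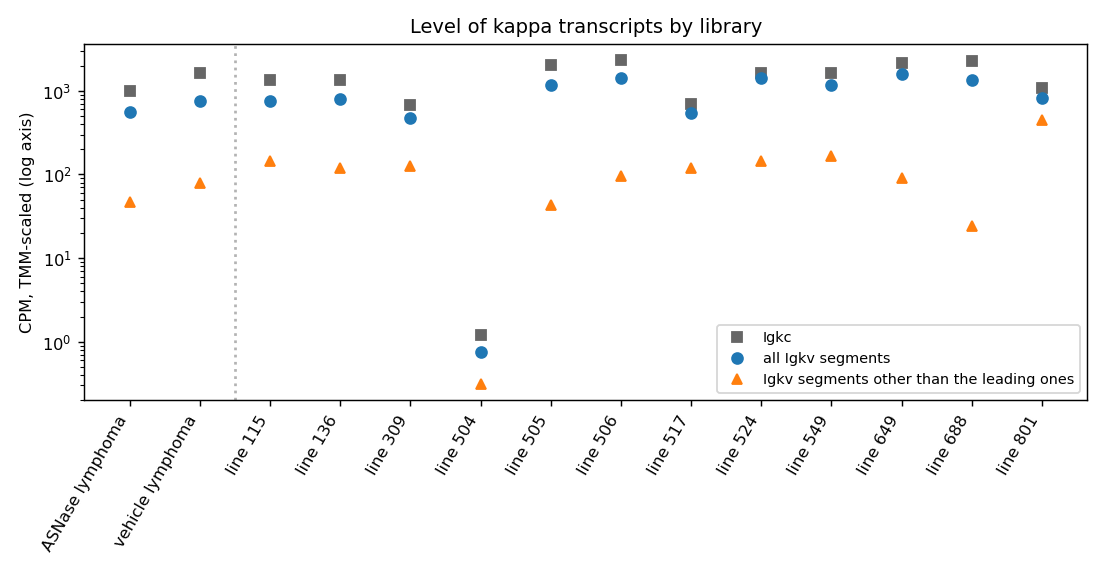
Level in each library, in TMM-scaled CPM on a log axis, of Igkc (squares), of all Igkv segments (circles) and of Igkv segments other than the leading ones (triangles). Line 504 lies near 1 CPM for Igkc and Igkv, and line 801 has the highest level of other segments, 446 CPM.

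The J segments gave a further view of the same libraries. Igkj1 had 646 counts in the ASNase lymphoma, 720 in the vehicle lymphoma and 731 in line 506. Igkj1 had no count in lines 517 and 649, which allows up to 0.0896 and 0.0950 CPM, while Igkj2 had 144 and 1037 counts there. Line 309 had 132 counts of Igkj5 and 12 of Igkj1. Igkj4 and Igkj5 stood at 24.2 and 25.9 CPM in the ASNase lymphoma and 26.3 and 27.1 CPM in the vehicle lymphoma, against 9.37 and 10.4 CPM in line 506.

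Lambda light chains were low beside kappa in both tumours. Iglc1, the lambda constant segment used with Iglv1, stood at 33.6 CPM in the ASNase lymphoma, 45.6 CPM in the vehicle lymphoma and 249 CPM in line 506, the highest of the lines. Iglc2 stood at 5.04 CPM in the ASNase lymphoma, against 13.0 CPM in the vehicle lymphoma and 7.97 CPM in line 506. Iglc3 stood at 47.6 CPM in the ASNase lymphoma, against 81.7 CPM in the vehicle lymphoma and 78.0 CPM in line 506. Iglv1 stood at 0.735 CPM in the ASNase lymphoma and 2.03 CPM in the vehicle lymphoma, against 18.2 CPM in line 506, while Iglv2 and Iglv3 stayed at or under 2.98 CPM in all 14 libraries. Vpreb3, a small partner of immature light chains, stood at 149 CPM in the ASNase lymphoma, 205 CPM in the vehicle lymphoma and 107 CPM in line 506, and Vpreb2 had no count in these 3.

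The comparison of the tumours with the cells in culture asked which segments differ between the lymphomas and the lines. Of the 85 segments that passed the filter on low counts, edgeR's quasi-likelihood test with Benjamini-Hochberg adjustment over 17450 genes called 0 higher and 0 lower in the lymphomas. At an unadjusted p under 0.05 there was 1, Igkv4-91, with 7 counts in the ASNase lymphoma and 18 in the vehicle lymphoma against 17 over the 12 lines (edgeR adjusted p = 0.125 for a log2 fold change of 2.89, with SE 1.30). Igkv4-91 had at most 6 counts in a line and passed the filter on low counts only through the vehicle lymphoma, where it is high. Its fold change and p-value are therefore no support for a difference. Of all genes tested 24.5% were called, 13.4% higher and 11.1% lower. DESeq2 called 0 segments as well, with 1 at an unadjusted p under 0.05 and no adjusted p for 13. The median log2 fold change of the 85 was -2.57, or -2.30 with the 8 segments that had no count in either lymphoma set to their bound at 3 counts per library, against -0.01 for all genes tested. The median of the segments was -4.22 without the vehicle lymphoma, -1.29 without the ASNase lymphoma and -0.96 with DESeq2. These fold changes are set against the mean level of the lines, which 1 line can dominate. Line 801 held 570 of the 575 counts of Igkv2-112 in the lines, and 722 of the 726 counts of Igkv8-18. A segment high in 1 line alone then counts as lower in the lymphomas. The median therefore does not tell whether segments in general were lower there.

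Igkv9-120 itself was not called, at 506 CPM in the ASNase lymphoma and 684 CPM in the vehicle lymphoma against 346 ± 544 CPM in the lines (SD, n = 12, edgeR adjusted p = 0.881). Its median over the lines was 0.253 CPM and its highest value 1339 CPM, in line 506, so the lines span a range wider than any gap to the lymphomas. The residual spread came from the lines, since each lymphoma had 1 library, and the common origin of the lymphomas in line 506 makes them dependent.

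The number of segments with at least 3 counts was 40 in the ASNase lymphoma and 73 in the vehicle lymphoma, against 34 in line 506 and 2 to 100 in the 12 lines, with a median of 41. The lymphomas averaged 56.5 and the lines 44.6, a difference that the exact two-sided permutation test over libraries did not separate (p = 0.549, where 2 of 14 libraries allow no p below 0.0220). Without the vehicle lymphoma the difference was -4.58 in place of 11.9. Segments other than the leading ones summed to 46.5 CPM in the ASNase lymphoma and 79.4 CPM in the vehicle lymphoma, against 96.3 CPM in line 506 and 0.311 to 446 CPM in the lines. On the log2(CPM + 0.1) scale the lymphomas averaged 5.93 and the lines 6.09 (difference -0.16, exact permutation test, two-sided, p = 0.571). Total-count scaling gave a difference of 0.061, and leaving out the ASNase lymphoma gave 0.22.

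Set against line 506, the same cells in culture, the tumours had less of the leading segment and a different tail. Each is a comparison of single libraries with no replicate check, and intervals are exact binomial ones on the ratio of counts. Igkv9-120 was 0.378-fold as abundant in the ASNase lymphoma (0.371 to 0.385) and 0.511-fold as abundant in the vehicle lymphoma (0.502 to 0.519), and Igkc was 0.426-fold and 0.709-fold as abundant. In a bulk sample fewer malignant cells and less transcript per cell cannot be told apart. Ighm, the heavy chain constant segment of IgM, was not lower. It stood at 3171 CPM in the ASNase lymphoma and 3504 CPM in the vehicle lymphoma against 2451 CPM in line 506. Igkv9-124 stood at 20.6 CPM in the ASNase lymphoma and 21.3 CPM in the vehicle lymphoma against 17.2 CPM in line 506, 1.20-fold (1.07 to 1.35) and 1.24-fold (1.10 to 1.39) as much, while its near copy Igkv9-120 was lower.

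Igkv1-122 and Igkv17-121, the nearest segments upstream of Igkv9-120, were lower in the tumours than in line 506, and so were some other segments. Igkv17-127 was 0.0560-fold as abundant in the ASNase lymphoma and 0.386-fold in the vehicle lymphoma, and Igkv11-125 0.168-fold and 0.183-fold. Igkv9-124 was not lower. Igkv1-122 stood at 0.301 CPM in the ASNase lymphoma and 0.483 CPM in the vehicle lymphoma against 24.4 CPM in line 506, ratios of 0.0123 (0.0056 to 0.0235) and 0.0198 (0.0110 to 0.0328). Igkv17-121 stood at 2.57 CPM in the ASNase lymphoma and 10.6 CPM in the vehicle lymphoma against 32.7 CPM in line 506. The opposite was seen for Igkv1-88, a minus-strand segment, at 5.08 CPM in the ASNase lymphoma and 4.93 CPM in the vehicle lymphoma against 0.814 CPM in line 506. A size rule stood in for a test: 5 CPM in at least 1 of the libraries and a log2 ratio of 1 or beyond. Of the 5 segments at that floor 1 was higher (Igkv1-88) and 3 lower (Igkv1-122, Igkv17-121, Igkv9-120) in the ASNase lymphoma than in line 506, against 28.5% of all genes at the floor, 16.5% higher and 12.0% lower. Of 4 segments 0 were higher and 2 lower (Igkv1-122, Igkv17-121) in the vehicle lymphoma than in line 506, against 29.7% of all genes, 17.6% higher and 12.2% lower. With a floor of 1 CPM, 3 of 13 segments were higher and 7 lower in the ASNase lymphoma, against 3495 and 1458 of 13439 genes. In the vehicle lymphoma 6 of 16 were higher and 4 lower, against 3589 and 1499 of 13421 genes.

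**Figure D4:**
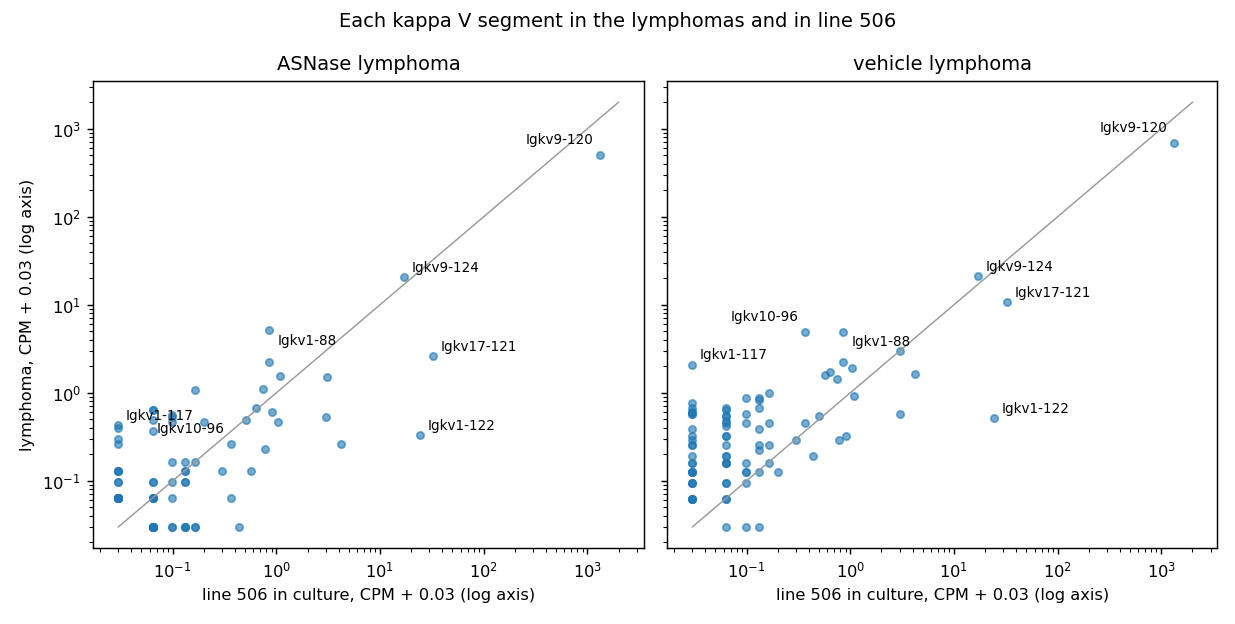
Each Igkv segment with a count in either library, in the ASNase lymphoma (left) and the vehicle lymphoma (right) against line 506 in culture, as CPM with a small offset on log axes, with the line of equal levels. Igkv9-120, Igkv17-121 and Igkv1-122 lie below the line in both panels, Igkv1-88 above it, and the vehicle panel holds more points above the line at low levels.

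The tail of segments with no count in line 506 was longer in the vehicle lymphoma. Segments with no count in line 506 and at least 3 in the tumour numbered 7 in the ASNase lymphoma, with 47 counts in all (0.284% of its Igkv counts), and 19 in the vehicle lymphoma, with 244 counts (1.03%). They shared 6. The most abundant in both was Igkv1-117, with 12 and 64 counts. The 7 segments came from 5 families and the 19 from 8. Of the 19, 3 lead another line, Igkv4-72, Igkv4-68 and Igkv3-7, with 11, 3 and 3 counts. Segments with at least 3 counts in line 506 and none in the tumour numbered 6 in the ASNase lymphoma and 1 in the vehicle lymphoma. A count of 0 in line 506 allows up to 0.102 CPM, and 3 counts in the vehicle lymphoma stand for 0.0966 CPM. Over all genes, 21642 had a count in the ASNase lymphoma, 21648 in the vehicle lymphoma and 17174 in line 506. The share of all genes gained or lost by the same rule was not computed, so these numbers are not read as particular to Igkv segments.

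Lists of mature B cell and plasma cell genes are given beside this tail, and both lists were also expressed in the cultured lines. Of 12 mature B cell genes, 11 were lower in the ASNase lymphoma than in the vehicle lymphoma and 1 was higher, and 7 in the ASNase lymphoma and 10 in the vehicle lymphoma were above line 506. Ighd, the heavy chain of naive B cells, stood at 75.9 CPM in the ASNase lymphoma and 199 CPM in the vehicle lymphoma against 8.21 CPM in line 506 and 8.21 to 134 CPM in the lines. Ms4a1, which encodes CD20, stood at 27.3 CPM in the ASNase lymphoma and 91.3 CPM in the vehicle lymphoma against 0.747 CPM in line 506. Fcer2a, a receptor of follicular B cells, had 5 counts in the ASNase lymphoma, 307 in the vehicle lymphoma and 0 in line 506. Fcmr, a receptor for IgM, stood at 8.59 CPM in the ASNase lymphoma and 30.0 CPM in the vehicle lymphoma against 9.43 CPM in line 506. Over the whole mature B cell list, with a median log2 fold change of -0.36, 0 of 12 genes were called by edgeR, and the summed level was 711 CPM in the ASNase lymphoma, 921 CPM in the vehicle lymphoma and 374 to 1953 CPM in the lines. Jchain, which joins secreted antibodies, had 25 counts in the ASNase lymphoma, 186 in the vehicle lymphoma and 0 in line 506.

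Among 13 plasma cell genes tested, 3 were called higher, Igha, Jchain and Derl3, against 13.4% of all genes tested, and the list summed to 1117 CPM in the ASNase lymphoma, 1279 CPM in the vehicle lymphoma and 719 to 1729 CPM in the lines. No gene of the pan-B list was called (0 of 10; smallest edgeR adjusted p = 0.0530, for Cd37). In the lists of other cell types, 8 of 12 T cell genes, 7 of 8 macrophage genes and 7 of 7 fibroblast genes were called higher, against the same 13.4% of all genes. The pan-B list summed to 3522 CPM in the ASNase lymphoma and 4542 CPM in the vehicle lymphoma. That list summed to 2945 CPM in line 506 and 2563 to 4059 CPM in the lines. The T cell list summed to 75.6 CPM in the ASNase lymphoma, 135 CPM in the vehicle lymphoma and 14.1 to 91.1 CPM in the lines. The macrophage list summed to 727 CPM in the ASNase lymphoma, 354 CPM in the vehicle lymphoma and 2.84 to 64.5 CPM in the lines, and the fibroblast list to 2087 CPM in the ASNase lymphoma, 817 CPM in the vehicle lymphoma and 0 to 2.00 CPM in the lines. In the lines Cd3e, Cd4, Trbc2, C1qa, C1qb, Dcn, Ccl19 and Pdpn had no count. They passed the filter on low counts only through the lymphomas, as did Jchain, with at most 3 counts in a line. The shares called in the plasma cell list and the lists of other cell types therefore cannot be read as an excess over all genes. The part of any of these cells in the Igkv tail was not tested.

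Between the treatments, kappa transcripts were lower in the ASNase lymphoma, as a comparison of 1 library each. Igkv9-120 was 0.741-fold as abundant (0.725 to 0.756), Igkc 0.6003-fold (0.592 to 0.609) and the Igkv segments other than the leading one 0.586-fold (0.548 to 0.626), at 46.5 CPM in the ASNase lymphoma against 79.4 CPM in the vehicle lymphoma. By the size rule 1 of the 4 segments at the floor differed, against 4.69% of all genes at the floor, 2.7% higher and 1.99% lower. It was Igkv17-121, lower in the ASNase lymphoma at 0.243-fold (0.187 to 0.312). Igkv9-124 and Igkv1-88 were at 0.971-fold (0.869 to 1.09) and 1.03-fold (0.818 to 1.30), so for these segments the interval includes equal levels.

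Below the 5 CPM floor the ratios between the treatments varied among segments outside the Igkv9 family. Igkv10-96 had 7 counts in the ASNase lymphoma and 152 in the vehicle lymphoma, 0.0478-fold (0.0189 to 0.101), and Igkv12-46 had 3 and 48. Igkv14-126, Igkv4-77 and Igkv10-95 had 44, 66 and 46 counts in the ASNase lymphoma, against 92, 68 and 28 in the vehicle lymphoma. Segments of families other than Igkv9 with at least 3 counts numbered 36 in the ASNase lymphoma, against 69 in the vehicle lymphoma, with 743 and 1782 counts. With a floor of 1 CPM, 8 of 15 segments differed by the size rule, lower in the ASNase lymphoma in each case, against 8.3% of all genes at that floor, 4.27% higher and 4.04% lower. Over the same pair of libraries Ighd was 0.381-fold as abundant (0.363 to 0.399) and Jchain 0.139-fold (0.0880 to 0.212).

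A few segments were counted at a low level in nearly every line. Igkv14-111, Igkv10-96 and Igkv10-95 had at least 3 counts in all 13 libraries other than line 504. Igkv10-95 ranged narrowly, with 46 counts in the ASNase lymphoma, 28 in the vehicle lymphoma and 16 to 68 in the 11 lines. Igkv10-96 was at 3 to 217 counts in 10 of these lines and at 887 in line 309, where it held 7.82% of the Igkv counts. Igkv9-124 had at least 3 counts in 10 of the 11 lines, with a median of 309, and Igkv1-88 in 10, with a median of 43. None of Igkv9-124, Igkv1-88, Igkv10-95 and Igkv10-96 reached 10% of the Igkv counts of any library.

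Genes that carry out and control light chain rearrangement were examined beside the segments, as a list of 31 with all 31 tested. In the lymphomas against the lines, 2 of the 31 were called higher and 4 lower, against 13.4% higher and 11.1% lower of all genes, so these counts are near or below the background. The median log2 fold change was -0.23, against -0.01 for all genes. The higher ones were Dclre1c, the Artemis nuclease that opens the hairpin ends, at 32.2 CPM in the ASNase lymphoma, 35.1 CPM in the vehicle lymphoma and 20.1 ± 4.02 CPM in the lines (SD, n = 12, edgeR adjusted p = 0.0309), and Polm, a polymerase of end joining (edgeR adjusted p = 0.0376). The lower ones were Hmgb1 and Hmgb2, DNA-bending proteins that assist RAG cutting, the transcription factor gene Spi1 and Rag1. Rag1 stood at 0.234 CPM in the ASNase lymphoma and 0.161 CPM in the vehicle lymphoma against 49.8 ± 50.7 CPM in the lines (SD, n = 12, edgeR adjusted p = 0.0441) and 6.52 CPM in line 506. Rag2 stood at 0.0668 CPM in the ASNase lymphoma and 0.290 CPM in the vehicle lymphoma against 11.3 ± 11.3 CPM in the lines (SD, n = 12, edgeR adjusted p = 0.0563).

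Across the 11 lines with over 100 Igkv counts, the lines with more Rag1 and Rag2 had more Igkv segments and a more even use of them. This relation and the limit of 100 Igkv counts were chosen after the values had been seen. For it 8 coefficients were computed, with permutation p-values from 100000 draws adjusted over the 8. The adjustment does not cover that choice, so the p-values describe the relation and are not an independent test of it. On the log2(CPM + 0.1) scale, Rag1 and the number of segments with at least 3 counts had Pearson's r = 0.74 (permutation p = 0.0125, adjusted p = 0.0197) and Spearman's rho = 0.88 (permutation p = 0.00062, adjusted p = 0.00248). Without lines 505 and 524, the farthest from the median of Rag1, r was 0.74. Rag2 and that number had r = 0.73 (permutation p = 0.0147, adjusted p = 0.0197) and rho = 0.83 (permutation p = 0.00289, adjusted p = 0.00771), and r = 0.68 without lines 524 and 801.

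The effective number of segments gave r = 0.64 (permutation p = 0.0467, adjusted p = 0.0467) and rho = 0.77 (permutation p = 0.00724, adjusted p = 0.0145) with Rag1. With Rag2 it gave r = 0.68 (permutation p = 0.0330, adjusted p = 0.0377) and rho = 0.89 (permutation p = 0.00055, adjusted p = 0.00248). Without the 2 farthest lines these r were 0.77 and 0.87. At the ends of the range, line 524 had no count of Rag1 or Rag2 and 20 segments, and line 801 had 127 CPM of Rag1, 27.4 CPM of Rag2 and 100 segments. Line 309 had the highest Rag1 of the 12 lines, 136 CPM, with 51 segments and the fewest Igkv counts of the 11 lines. Line 504, left out for its 22 Igkv counts, went against the relation. It had 122 CPM of Rag1 and the highest Rag2 of the 12 lines, 33.4 CPM, with 2 segments. The lymphomas had Rag1 below 0.3 CPM with 40 segments in the ASNase lymphoma and 73 in the vehicle lymphoma, and were not part of the relation.

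**Figure D5:**
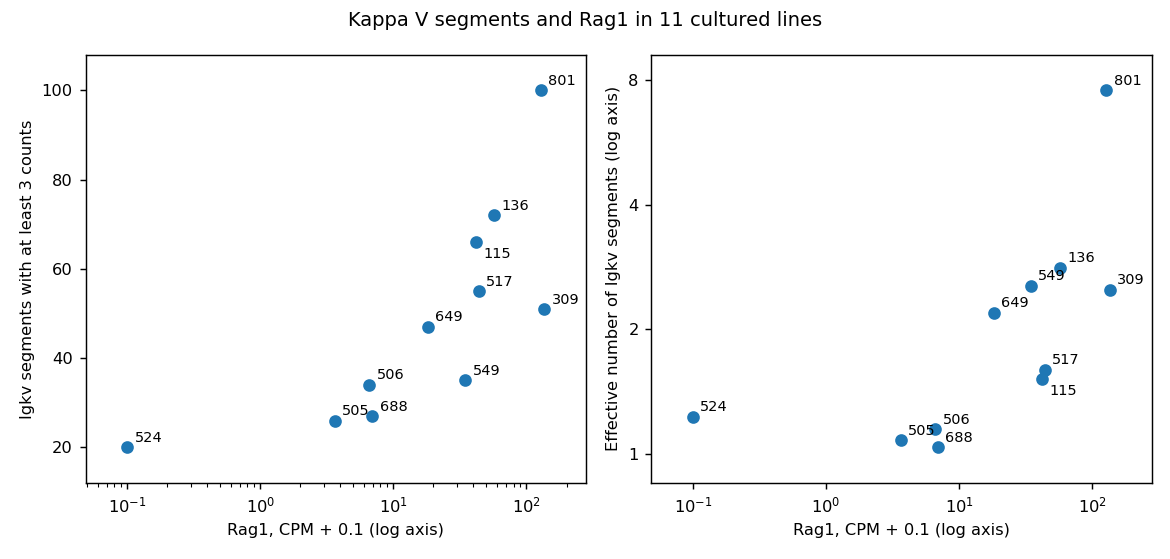
Number of Igkv segments with at least 3 counts (left) and effective number of Igkv segments on a log axis (right) against Rag1 as CPM + 0.1 on a log axis, in the 11 cultured lines with over 100 Igkv counts, labelled by mouse number. Line 524, with no count of Rag1, has 20 segments, and line 801, with 127 CPM of Rag1, has 100.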

How the data were processed

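RNA of 14 libraries was measured by stranded mRNA sequencing (paired 75-base reads, NextSeq 500, per the labels' protocols). The authors deposited whole-number counts for each gene, without normalization. The submitters' processing notes name STAR 2.4.0, featureCounts (Subread 1.5.0-p3) and mm10 (GRCm38). How strand and multi-mapping reads were set is not given in the sources used here. Spike-in and phage entries (100) were left out.

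Counts of all genes were fitted with edgeR 4.0.16 (TMM, filterByExpr, glmQLFit, glmQLFTest, adjusted p under 0.05), after the fit had been tested on simulated data, with DESeq2 1.42.0 as an alternative (R 4.3.3). In the simulation the fit recovered 10 of 66 changes of 1 log2 unit, 40 of 67 of 2 units and 51 of 67 of 3 units. Of 17250 unchanged genes 6 were called. The changed genes had a mean of at least 1 CPM in the lines, so these rates do not cover segments below that level. A segment that was not called may therefore still differ. Shares have exact 95% intervals. V sequences were aligned with biopython 1.88 (Python 3.11.15). With 1 library per line, p-values measure the spread between lines.

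Named segments hold at least 10% of a library, stand second in it, are among the 5 largest others of a lymphoma, or pass a test or the size rule. Near copies, neighbours, the smaller segments of line 801, Igkv4-91, Igkv11-125, Igkv12-46, Ms4a1, Fcmr and genes without a count in the lines were named after values were seen. Genes of a list are named by smallest p, up to 3. Members, lists and the Rag relation were chosen with earlier results of these data known.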

Additional observations from a re-analysis of the deposited data

How the results depend on the processing

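Of the results that answer a comparison, 33 values kept their direction and their side of the threshold under the alternatives and 12 moved. For segments with at least 3 counts, lymphomas minus lines, the main difference of 11.9 ranged from -4.58 without the vehicle lymphoma to 28.4 without the ASNase lymphoma, with exact permutation p between 0.308 and 1.00. The difference in other segments, -0.16 on the log2 scale, was -0.55 without the vehicle lymphoma, 0.22 without the ASNase lymphoma, 0.061 with total counts and -0.82 with the largest segment of each library taken off. Without lines under 100 Igkv counts, an alternative chosen after seeing the data, it was -0.83. The number of lines with 2 leading segments, 6, was 3 at a 20% threshold and 2 at 20% without line 504. Between the lymphomas, the size rule gave 8 segments with a floor of 1 CPM, 0 with 20 CPM, 2 with total counts and 2 with DESeq2 size factors, in place of 1. The ratio of other segments between the lymphomas, 0.586, was 0.437 with the 3 largest segments taken off and 0.433 with the leading family taken off. The edgeR count of higher segments was 0, and 1 without the ASNase lymphoma. The cause of these moves was not tested. Counting per kilobase gave a first share of 58.8% in place of 61.1% in line 309. No paired analysis was possible because each treatment has 1 library. Segments of 3 counts are at the limit of detection, and line 504 gives no usable shares.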
